A study of Homo sapiens with 6 samples.

Results

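Histone lysine methyltransferases and demethylases set and remove the methyl marks of chromatin, and 45 genes of these enzymes and of the PRC2 complex are described here in oral squamous carcinoma cells given lactate. The genes were taken by symbol: 28 on the writer side, the PRC2 subunits EED and SUZ12 among them, and 17 demethylases, the erasers. All 45 symbols were found among the 31368 genes of the expression table, and 0 of them under an earlier symbol. The cells were CAL27, an established human line from a squamous carcinoma of the tongue. Poly-A RNA was sequenced from 3 untreated libraries and from 3 libraries of cells kept in 10 mM lactate for 24 h, all without any other agent or genetic change named in the labels. CUT&Tag for lactylation and ATAC-seq from the same study were not used here. CAL27 is 1 cell line. The labels do not give the form of lactate or the pH, and nothing in them says that the libraries came from separate cultures, so p-values measure the spread between these libraries.

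A histone lysine methyltransferase moves methyl groups from S-adenosylmethionine to a lysine, and the lysine chosen sets what the mark is known for. Methylation of H3K4 is found at active promoters and enhancers, of H3K36 and H3K79 over transcribed genes, of H3K9 and H3K27 in silenced chromatin, and of H4K20 in compaction and replication. Erasers fall into the FAD-dependent KDM1 enzymes and the JmjC-domain enzymes, which use iron, oxygen and 2-oxoglutarate, and several of the JmjC genes are known as hypoxia-induced.

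The deposited values are FPKM, fragments scaled to gene length and library size, and levels are set beside each other between genes only as far as the authors' gene lengths allow. The length behind the FPKM was over 1.5 times the GENCODE exon length for 3 members: 10774 against 4522 bases for EZH2, 53322 against 20114 for KMT2C and 27742 against 7139 for KDM6A. At the GENCODE length their untreated means would be 11.4, 0.875 and 3.30 FPKM, so their place among the genes is uncertain. The ratio of FPKM between the groups is not moved by the length. A filter at 1 FPKM and a log2 taken after 1 is added, both used below, do depend on it. Whole reads recovered from them number 25895115 to 39509993 a library. Library profiles correlated at 0.996 to 0.997 within a group and at 0.989 to 0.991 between groups (Pearson's r of log2 values over the genes tested, a description). All 9 squamous epithelial markers checked were present, at a sum of 1050 to 1070 FPKM untreated and 1060 to 1080 FPKM with lactate, with KRT14 low at 2.02 and 2.83 FPKM. Fibroblast markers summed to at most 1.79 FPKM, leukocyte markers to at most 1.02 FPKM and endothelial markers to at most 1.41 FPKM in any library. The recovered reads came to 103 to 104% of the authors' scaling denominators in untreated libraries and to 98.0 to 99.1% with lactate, so scaling by read totals instead moved the median log2 fold change of all genes tested from -0.02 to 0.04.

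The genes were expressed at low to moderate levels (mean ± SD, n = 3 libraries in each group, for these and all following means). KDM1A, the H3K4 demethylase of the CoREST complex, had the highest untreated level of the 45, at 21.9 ± 0.503 FPKM. KDM2A, an H3K36 demethylase that binds unmethylated CpG islands, followed at 13.1 ± 0.1 FPKM, and KDM5C, an H3K4 demethylase, at 9.58 ± 0.209 FPKM. On the writer side KMT5A, which monomethylates H4K20, had 8.72 ± 0.251 FPKM, and SUZ12 and EED 7.52 ± 0.233 and 6.62 ± 0.175 FPKM. At the other end, 6 genes averaged under 1 FPKM in untreated cells: KMT2C at 0.330, KMT2A at 0.551, SETDB2 at 0.632, KDM5B at 0.787, KDM7A at 0.832 and KDM6A at 0.850 FPKM. With the GENCODE lengths EZH2 would stand above KMT5A and KDM6A would not be among the 6. Writer transcripts summed to 90 to 91.1 FPKM in the untreated libraries and 95.0 to 96.8 FPKM with lactate. Eraser transcripts summed to 74.9 to 75.6 and 78.4 to 79 FPKM. Both sums were higher in every lactate library, and no test was made of them.

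**Figure D1:**
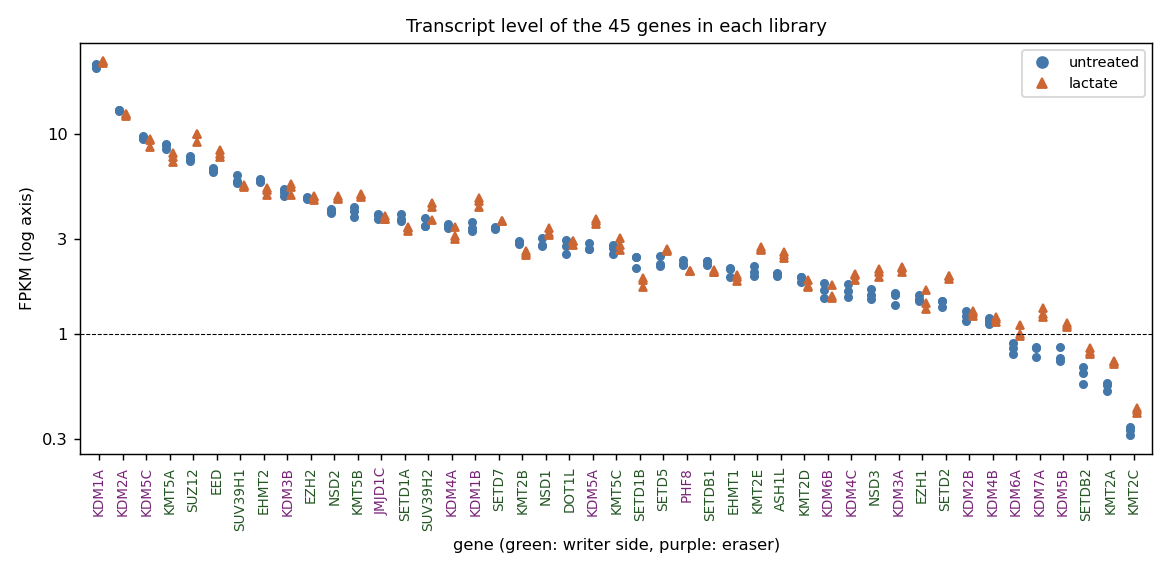
Transcript level of each of the 45 genes in FPKM on a log axis, ordered by untreated mean, with untreated libraries as circles and lactate libraries as triangles; names in green are on the writer side and names in purple are erasers. KDM1A stands highest at 21.9 FPKM and KMT2C lowest at 0.330 FPKM in untreated cells, and the dashed line marks 1 FPKM.

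Lactate was compared with untreated cells by limma on log2(FPKM + 1), over 11792 genes that reached 1 FPKM in at least 3 libraries, with Benjamini-Hochberg adjusted p under 0.05 as the threshold. This adds 1 to every value and so understates the fold of low genes. Of the members, 39 passed the filter in both groups. KDM5B and KDM7A passed only through their lactate libraries, and KMT2A, KMT2C, SETDB2 and KDM6A did not pass. A second fit, limma-voom on the recovered reads of 17100 genes with at least 10 reads in 3 libraries, gives all 45 a test, since the fewest reads of any member in any library were 95. It was added after the data were seen, and its log2 fold changes carry no pseudocount. They are called read-based below.

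Of the 39 members that passed in both groups, 16 rose, 5 fell and 18 did not pass the test, 53.8% called where 58.6% of all genes tested were called. With the 2 that passed only through lactate, the writer side had 12 higher and 5 lower of 25 tested, with a median log2 fold change of 0.05, and the erasers had 6 higher and 0 lower of 16, with a median of 0.04. Over all genes the median was -0.02, with 27.7% higher and 30.9% lower. On the read-based scale 22 of 45 rose and 7 fell, 64.4% beside 48.5% of all genes (24.5% higher, 24% lower). Untreated and lactate values did not overlap for 31 of 45 members, beside 54.3% of all genes with 10 reads. The 17100 genes reach down to 10 reads, while no member had fewer than 95, so these read-based shares are not like for like. By voom on the 11792 genes of the FPKM filter, 66.7% of the 39 members were called, beside 62.7% of those genes. On the FPKM scale too the members' share called was near that of all genes. The lowest and highest read-based values were -0.35 for SETD1B and 0.62 for KDM7A.

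**Figure D2:**
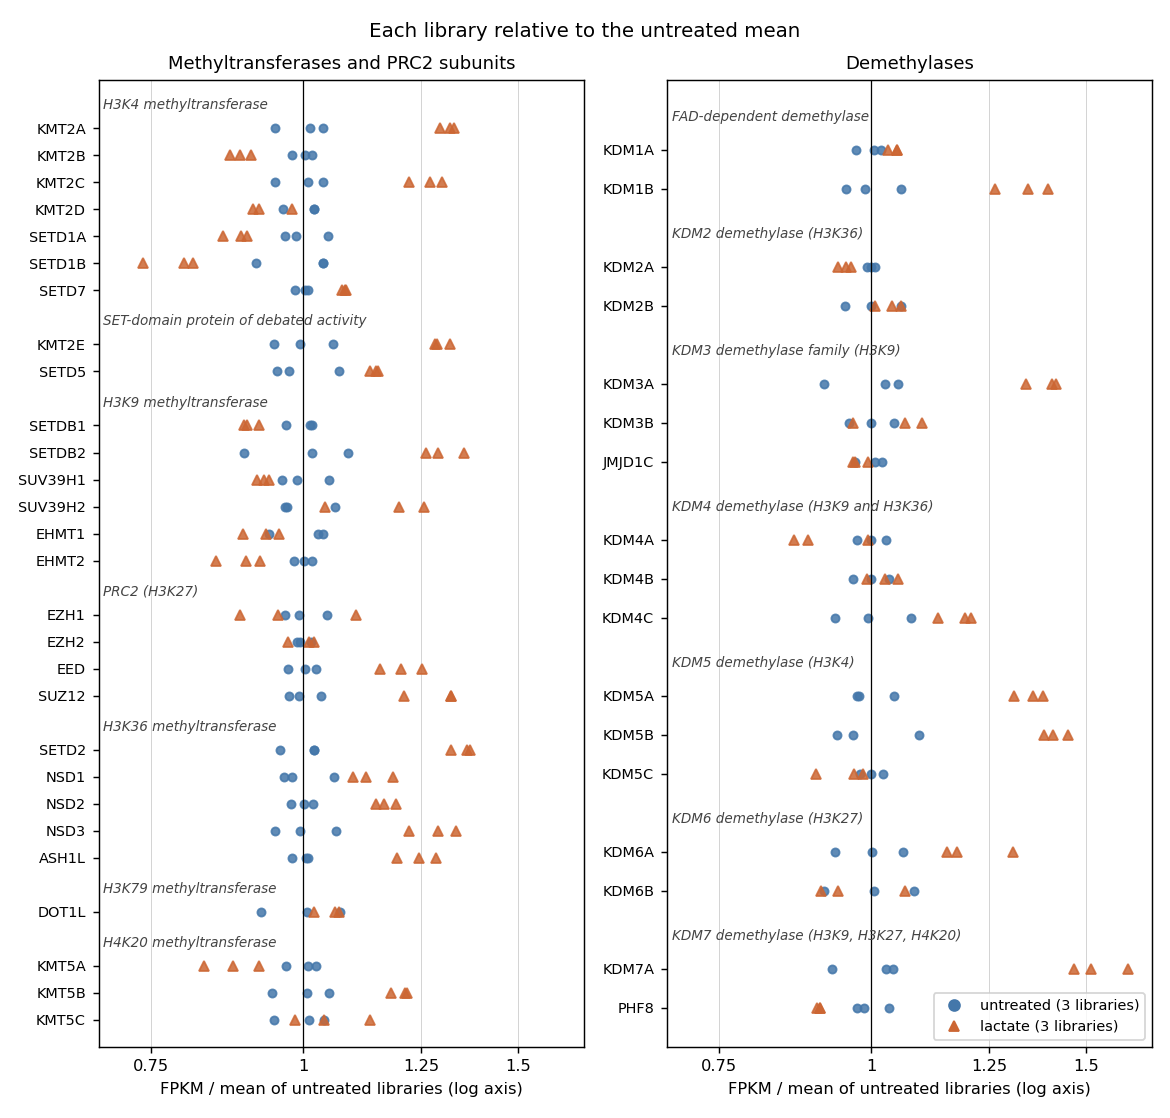
Each library's FPKM divided by the gene's untreated mean, on a log axis, for the writer side on the left and the erasers on the right, grouped by the lysine or enzyme family; circles are untreated and triangles lactate libraries. KDM7A lies furthest to the right, with a ratio of group means of 1.53, and SETD1B furthest to the left, at 0.785.

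H3K4 methyltransferases moved in both directions. SETD1B, SETD1A and KMT2B fell, SETD7 rose by a small step, and KMT2D did not pass the test. SETD1B, a COMPASS enzyme that trimethylates H3K4 (chr12:121804180-121832584, hg38), stood at 2.43, 2.43 and 2.14 FPKM in the untreated libraries and 1.87, 1.90 and 1.73 FPKM with lactate. All 3 lactate values lay below the untreated ones. Its log2 fold change was -0.23 ± 0.05 (SE), adjusted p = 0.00592, and -0.35 ± 0.07 read-based.

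SETD1A, its paralog, went from 3.80 ± 0.161 to 3.36 ± 0.0769 FPKM (log2 -0.14, adjusted p = 0.0159), and KMT2B, the MLL-type enzyme closest to KMT2A, from 2.87 ± 0.0554 to 2.55 ± 0.0519 FPKM (log2 -0.12, adjusted p = 0.0173). Neither passed when libraries were scaled by read totals (adjusted p = 0.0825 and 0.12), nor in every fit that left out 1 library: SETD1A was lost without untreated library 1 or lactate library 3, and KMT2B without lactate library 1. SETD7, which monomethylates H3K4 and many other proteins, went from 3.40 ± 0.0405 to 3.68 ± 0.0154 FPKM (log2 0.09, adjusted p = 0.0385) and passed in 0 of 6 such fits (adjusted p 0.0689 to 0.102).

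KMT2A and KMT2C lay under the filter and rose on the read-based scale, but in the FPKM fit with no filter neither passed (log2 0.15 and 0.09, adjusted p = 0.0619 and 0.246). KMT2A, the MLL enzyme of HOX gene control, had 0.572, 0.558 and 0.523 FPKM untreated and 0.727, 0.732 and 0.714 FPKM with lactate, a read-based log2 of 0.40 ± 0.06 with adjusted p = 1.73e-07. Of the 31305 exon bases of KMT2A, 5599 are shared with another annotated gene on the same strand, so its reads may be split. KMT2C, an enhancer H3K4 monomethylase, went from 0.330 ± 0.0151 to 0.417 ± 0.0135 FPKM (read-based log2 0.35, adjusted p = 3.51e-06). Its paralog KMT2D, at 1.90 and 1.78 FPKM, had a read-based log2 of -0.10 with adjusted p = 0.0598. Within the MLL and SETD1 family 2 genes rose and 3 fell on the same scale. The KMT2A to KMT2B ratio within a library, which no scaling between libraries can move, was 0.182 to 0.203 untreated and 0.274 to 0.291 with lactate. This pair was picked after its values were seen. Such a ratio can move with the trend on GC content described further on: KMT2A has 46.9% GC and KMT2B 63.5%. With that trend removed from reads, their log2 fold changes were 0.28 and -0.19.

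KMT2E and SETD5, SET-domain proteins whose own methyltransferase activity is debated, both rose. KMT2E read 2.18, 1.95 and 2.05 FPKM untreated and 2.65, 2.72 and 2.64 FPKM with lactate, with a log2 fold change of 0.26 ± 0.04 and adjusted p = 0.00128. SETD5 went from 2.30 ± 0.144 to 2.63 ± 0.0219 FPKM (log2 0.14, adjusted p = 0.0244). Its call was lost in 5 of 6 fits that left out 1 library, all but the one without untreated library 2 (adjusted p up to 0.075).

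Among the 6 H3K9 methyltransferases, 1 rose and 1 fell of the 5 tested. EHMT2, or G9a, which dimethylates H3K9 in euchromatin, had 5.73, 5.93 and 5.84 FPKM untreated and 4.95, 5.38 and 5.24 FPKM with lactate. The groups did not overlap, and the log2 fold change was -0.14 ± 0.04 with adjusted p = 0.0111. With read-total scaling its adjusted p was 0.101. Its partner in a heterodimer, EHMT1, read 1.94, 2.15 and 2.13 FPKM untreated and 1.93, 1.98 and 1.85 FPKM with lactate. The EHMT1 groups overlapped, with adjusted p = 0.189, and the read-based adjusted p was 0.0286. The EHMT2 to EHMT1 ratio was 2.74 to 2.95 untreated and 2.56 to 2.83 with lactate, so the ranges overlapped.

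SUV39H1 and SUV39H2, paralogs that trimethylate H3K9 in heterochromatin, differed in sign. SUV39H1 had 5.84, 5.68 and 6.21 FPKM untreated and 5.42, 5.49 and 5.54 FPKM with lactate (log2 -0.09, adjusted p = 0.0649). SUV39H2 had 3.81, 3.48 and 3.47 FPKM untreated and 4.30, 3.74 and 4.51 FPKM with lactate (log2 0.18, adjusted p = 0.0412). The SUV39H2 groups overlapped, and its call was lost without untreated library 2 or 3 or lactate library 1 or 3 (adjusted p up to 0.129). Their ratio within a library was 1.53 to 1.79 untreated and 1.23 to 1.47 with lactate, with no overlap. SUV39H1 has 57.6% GC and SUV39H2 41.1%, so the trend on GC content can move this ratio. With that trend removed from reads, their log2 fold changes were 0.02 and 0.11, and neither passed (adjusted p = 0.864 and 0.248 by limma).

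SETDB1, the H3K9 methyltransferase recruited by KRAB zinc fingers and TRIM28, had 2.28 ± 0.0618 and 2.06 ± 0.0308 FPKM (adjusted p = 0.0532). Strand use in the authors' counting is not given in the sources used here, and 948 of its 7093 exon bases are shared with CERS2 on the other strand, a gene at 24.6 FPKM. SETDB2 lay under the filter and went from 0.632 ± 0.0621 to 0.823 ± 0.0304 FPKM, with a read-based log2 of 0.37 ± 0.12 and adjusted p = 0.00867. In the FPKM fit with no filter it did not pass (log2 0.16, adjusted p = 0.0829). It rests on the fewest reads of the 45, 95 to 214 a library.

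In PRC2, which methylates H3K27, SUZ12 and EED rose, and the enzymes EZH1 and EZH2 did not pass the test. SUZ12, which holds the complex together (chr17:31937018-32001045), stood at 7.33, 7.46 and 7.78 FPKM untreated and at 9.94, 9.10 and 9.94 FPKM with lactate. Every lactate library lay above every untreated one, with a log2 fold change of 0.32 ± 0.04 and adjusted p = 0.000471. EED, which binds the trimethyl mark, went from 6.62 ± 0.175 to 7.97 ± 0.322 FPKM (log2 0.23, adjusted p = 0.00121). With the GC and length trend described further on removed, EED was at 0.08 on FPKM and on reads (adjusted p = 0.0463 and 0.0862 by limma).

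EZH2, the main catalytic subunit in dividing cells, had 4.77, 4.75 and 4.87 FPKM untreated and 4.90, 4.67 and 4.85 FPKM with lactate. EZH1, its paralog, had 1.5, 1.46 and 1.58 FPKM untreated and 1.34, 1.67 and 1.44 FPKM with lactate. Both sets of values overlapped, with log2 fold changes of 0.00 ± 0.03 and -0.02 ± 0.06 (adjusted p = 0.955 and 0.817). With the GC and length trend removed, EZH2 was lower, at -0.09 on FPKM and -0.11 on reads (adjusted p = 0.0292 and 0.0174 by limma). EZH2 to EZH1 ratios, whose size depends on the lengths used, spanned 3.09 to 3.27 untreated and 2.80 to 3.65 with lactate. SUZ12 has a pseudogene copy in the table, SUZ12P1, which could take some of its reads; that copy lay at 1.60 to 1.68 FPKM untreated and 1.51 to 1.73 FPKM with lactate.

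All 5 H3K36 methyltransferases rose by limma on FPKM, where 27.7% of all genes tested were higher. SETD2, the enzyme that trimethylates H3K36 behind RNA polymerase II (chr3:47016429-47163967), had 1.46, 1.46 and 1.37 FPKM untreated and 1.96, 1.89 and 1.95 FPKM with lactate. The groups did not overlap, the log2 fold change was 0.27 ± 0.04 (adjusted p = 0.0011) and the read-based value 0.44 ± 0.06. The dimethylating enzymes NSD1, NSD2, NSD3 and ASH1L had log2 fold changes of 0.14, 0.18, 0.23 and 0.22, each with groups that did not overlap. The groups did not overlap for 54.3% of all genes with at least 10 reads. NSD2, the most abundant of the 5, went from 4.12 ± 0.0833 to 4.81 ± 0.0935 FPKM (adjusted p = 0.00204). NSD1, at 2.86 and 3.25 FPKM (adjusted p = 0.0279), lost its call without untreated library 2 or 3 or lactate library 1 or 3, with adjusted p up to 0.0909. NSD3 went from 1.58 to 2.03 FPKM and ASH1L from 2 to 2.48 FPKM. These 5 share a low GC content of 42.0 to 47.2%, described with its values further on. With the GC and length trend removed, 1 of the 5 (SETD2) was called higher on FPKM, beside 21.7% of all genes. On reads 4 were higher, all but NSD1, beside 19.7% of all genes.

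DOT1L, the main H3K79 methyltransferase, had 2.53, 2.94 and 2.76 FPKM untreated and 2.91, 2.93 and 2.80 FPKM with lactate, overlapping values with adjusted p = 0.37. The 3 H4K20 enzymes split. KMT5B, which dimethylates and trimethylates H4K20, had 4.13, 3.87 and 4.31 FPKM untreated and 4.84, 4.97 and 4.99 FPKM with lactate. Its log2 fold change was 0.22 ± 0.04 with adjusted p = 0.0027. KMT5A went down from 8.72 ± 0.251 to 7.63 ± 0.389 FPKM (log2 -0.17, adjusted p = 0.00822), a call that ended with read-total scaling (adjusted p = 0.0578). KMT5C, at 2.67 and 2.81 FPKM, did not pass (adjusted p = 0.387).

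The KMT5A to KMT5B ratio was 1.96 to 2.28 in untreated and 1.5 to 1.61 in lactate libraries. This pair too was picked after its values were seen. KMT5A has 51.8% GC and KMT5B 40.7%, so the trend on GC content can move the ratio. KMT5A has 2 pseudogene copies in the table, KMT5AP1 at 1.52 to 2.01 FPKM and KMT5AP2 at 4.57 to 6.28 FPKM over the 6 libraries, so reads may be split between them.

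Among the 17 erasers, the genes that rose were KDM1B, KDM3A, KDM4C, KDM5A, KDM5B and KDM7A, and 0 fell by limma on FPKM. At an unadjusted p under 0.05, 2 erasers were lower (KDM2A and PHF8), and 1 (KDM2A) was lower by voom on reads. Quantile normalization or median centring put 2 erasers lower. RefSeq promoter windows (GRCh38.p14) were read for the 42 members that had one. Sequences are printed for the 6 erasers that rose, which were chosen by that outcome. Some genes of the KDM3, KDM4 and KDM5 families are known as hypoxia-induced. The letters searched were ACGTG and GCGTG, the core of the hypoxia-response element, on both strands in the 250 bases before each annotated start. A palindrome counts once on each strand. Below are 29 bases around a core for each of the 6 genes, read 5′ to 3′ on the gene's strand with the core in capitals, and for KDM4C the 2 palindromic cores nearest its start. Coordinates are GRCh38, and the windows other than that of KDM7A overlap an annotated exon.
KDM1B, chr6:18155404-18155432, plus strand: cccaccccgggtCACGCcgtgacaggggc
KDM3A, chr2:86441333-86441361, plus strand: ccgggaggctgtGCGTGtcttgtgagagc
KDM4C, chr9:6757899-6757927, plus strand: gtttgtaagcccACGTGactcaccaagtg
KDM4C, chr9:6757931-6757959, plus strand: gccccagcggtcACGTGacggcgcgcgcg
KDM5A, chr12:389458-389486, minus strand: caagggcgagctGCGTGgagtcgttggac
KDM5B, chr1:202808469-202808497, minus strand: cggaggcgcacgGCGTGggcttgcggcga
KDM7A, chr7:140177147-140177175, minus strand: ccggcgccagagACGTGcgcgagacgcac

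All 6 erasers that rose held a core, and so did 7 of the 10 erasers that did not pass the test (KDM3B, KDM5C and PHF8 held none). On the writer side 9 of 11 genes that rose, 3 of 4 that fell and 7 of 7 that did not pass held one. Counted by window, 41 of 62 members' windows (66.1%) held a core, beside 15172 of 35116 (43.2%) among all promoter windows. Members' windows had a median GC content of 69.4%, and all windows 58.0%. A match is a description of letters and not a binding site. SETD1B, NSD3 and DOT1L had no entry in the promoter table.

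KDM1B, the FAD-dependent H3K4 demethylase known from oocytes (chr6:18155329-18223853), had 3.63, 3.39 and 3.27 FPKM untreated and 4.79, 4.33 and 4.61 FPKM with lactate. All lactate values were above all untreated ones. The log2 fold change was 0.33 ± 0.05 with adjusted p = 0.000704. Its relative KDM1A, from 21.9 ± 0.503 to 22.9 ± 0.186 FPKM, had a log2 of 0.06 and adjusted p = 0.0652; with read-total scaling it passed (log2 0.13, adjusted p = 0.00344). The KDM1A to KDM1B ratio was 6.13 to 6.51 untreated and 4.73 to 5.30 with lactate, a pair chosen after its values were seen. KDM1A has 50.8% GC and KDM1B 41.6%, so the trend on GC content can move the ratio.

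The KDM2 enzymes, which remove H3K36 methylation, did not pass. KDM2A had 13.1, 13.0 and 13.2 FPKM untreated and 12.6, 12.3 and 12.5 FPKM with lactate. These values did not overlap, the log2 was -0.07 ± 0.02 and the adjusted p 0.0501, which misses the threshold; the read-based adjusted p was 0.0283, and with read-total scaling the log2 was 0.00. KDM2B, a member of a variant PRC1 complex, was at 1.23 and 1.27 FPKM (adjusted p = 0.663).

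KDM3A, an H3K9 demethylase and known hypoxia-induced gene (chr2:86440647-86492716), had 1.57, 1.40 and 1.61 FPKM untreated and 2.17, 2.05 and 2.15 FPKM with lactate. The groups stood well apart, with a log2 fold change of 0.31 ± 0.05 (adjusted p = 0.00116) and 0.47 ± 0.06 read-based. Its relatives KDM3B, at 5.11 and 5.34 FPKM, and JMJD1C, at 3.90 and 3.81 FPKM, did not pass (adjusted p = 0.407 and 0.513). In the KDM4 family, whose enzymes demethylate H3K9 and H3K36, KDM4C had 1.64, 1.54 and 1.78 FPKM untreated and 1.87, 1.99 and 1.97 FPKM with lactate. Its log2 was 0.15 ± 0.05 with adjusted p = 0.0311, lost without untreated library 1 or 2 or lactate library 2 or 3 (adjusted p up to 0.0875).

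KDM4A, at 3.47 and 3.18 FPKM, and KDM4B, at 1.16 and 1.19 FPKM, did not pass (adjusted p = 0.113 and 0.768). Of the 5172 exon bases of KDM4A, 2077 are shared with another annotated gene on the same strand, so its reads may be split. KDM4B is also known as hypoxia-induced, and its values overlapped between the groups.

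The KDM5 enzymes, which remove H3K4 trimethylation, showed KDM5A and KDM5B higher and KDM5C not. KDM5A, first found as an RB-binding protein (chr12:280129-389454), had 2.66, 2.65 and 2.84 FPKM untreated and 3.56, 3.69 and 3.76 FPKM with lactate. It had the smallest adjusted p of the 41 tested, 0.00031, at a log2 of 0.33 ± 0.04 and 0.43 ± 0.05 read-based. KDM5B went from 0.787 ± 0.066 to 1.12 ± 0.0257 FPKM, with a read-based log2 of 0.51 ± 0.06 (adjusted p = 1.61e-10). It reached 1 FPKM only with lactate, so its pass in the FPKM fit is not independent of its rise.

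KDM5C, on the X chromosome and the most abundant of the KDM5 genes, was at 9.58 ± 0.209 and 9.11 ± 0.423 FPKM (adjusted p = 0.167). The KDM5C to KDM5A ratio was 3.37 to 3.69 in untreated libraries and 2.43 to 2.51 with lactate, ranges that did not overlap. The pair was chosen after its values were seen. KDM5C has 54.9% GC and KDM5A 42.9%, so the trend on GC content can move the ratio.

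KDM6A and KDM6B, also known as UTX and JMJD3, remove H3K27 methylation. KDM6A had 0.903, 0.794 and 0.852 FPKM untreated and 1.11, 1 and 0.980 FPKM with lactate, and rose on the read-based scale (log2 0.27 ± 0.06, adjusted p = 7.84e-05). In the FPKM fit with no filter it did not pass (log2 0.13, adjusted p = 0.133). That fit and the filter used the authors' length. At the GENCODE length the untreated mean of KDM6A would be 3.30 FPKM, above the filter. KDM6B, a gene often induced by stimuli, had 1.67, 1.80 and 1.52 FPKM untreated and 1.77, 1.56 and 1.51 FPKM with lactate, overlapping values with adjusted p = 0.699. KDM6B over KDM6A, at the authors' lengths, was 1.78 to 2.27 untreated and 1.54 to 1.59 with lactate. KDM6B has 62.4% GC and KDM6A 43.5%, so the trend on GC content can move the ratio.

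KDM7A, which demethylates H3K9 and H3K27 (chr7:140084746-140177035), had the largest fold of the 45. It read 0.867, 0.856 and 0.772 FPKM untreated and 1.26, 1.35 and 1.22 FPKM with lactate, a ratio of means of 1.53. The read-based log2 was 0.62 ± 0.09 (adjusted p = 2.8e-08), and the log2(FPKM + 1) value was 0.31. It too passed the FPKM filter only through the lactate libraries. PHF8, its X-linked relative that acts on H3K9 and H4K20, was at 2.28 ± 0.069 and 2.07 ± 0.00565 FPKM (adjusted p = 0.0611), with groups that did not overlap.

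Fold changes of the members followed the base composition of their transcripts. The 22 members that rose on the read-based scale had a GC content of 33.0 to 48.6% (median 43.0%), and the 7 that fell had 51.6 to 63.5% (median 60.9%). No member above 50% GC rose and none below 50% fell. The 16 that did not pass had 39.9 to 66.1%, and only JMJD1C and EZH2 of these were below 50%. Over the 45 members the read-based fold change and GC content correlated at Pearson's r = -0.72 and Spearman's rho = -0.734, a description across genes that share the same libraries. The relation was also there in 13000 protein-coding genes with at least 10 reads, at rho = -0.388. The members are long as well: the length behind their FPKM had a median of 10200 bases. Those protein-coding genes had a median GENCODE exon length of 5090 bases, a different measure of length.

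**Figure D3:**
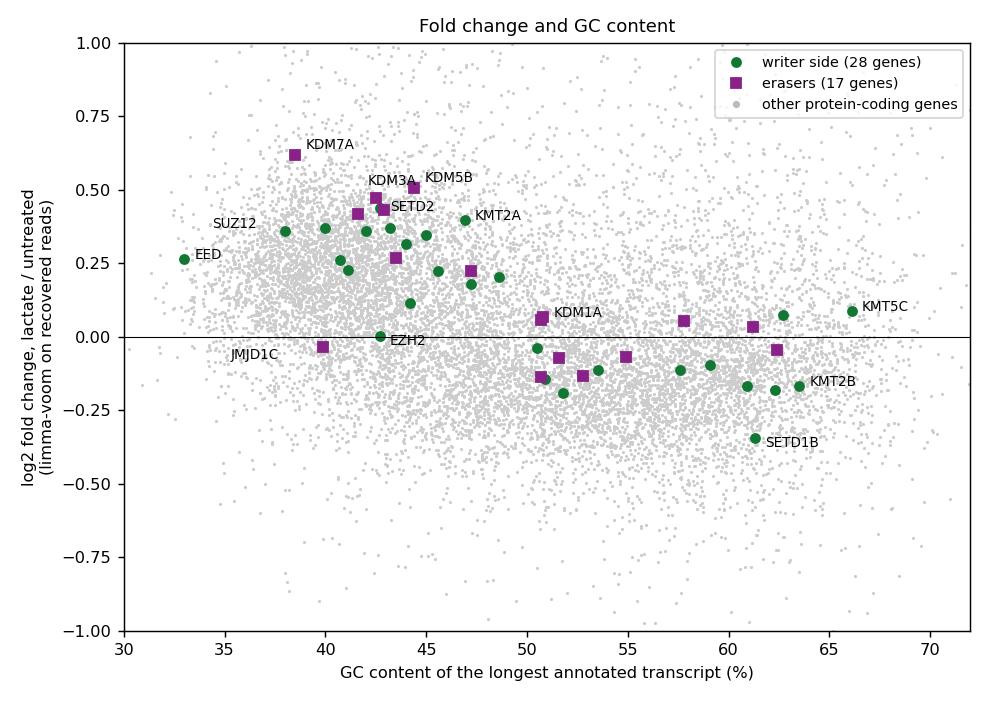
Read-based log2 fold change against the GC content of the longest annotated transcript for 28 writer-side genes (circles) and 17 erasers (squares), over 12955 other protein-coding genes in grey, of which 136 lie outside the axes. Members below 50% GC lie above 0 except JMJD1C at -0.03, with EZH2 at 0.00; neither passed the test.

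When a smooth trend on GC content and length, fitted over all genes, was taken out of the recovered log2 reads, 17 members were higher and 10 lower, 60.0% of the 45 beside 41.7% of 16738 genes (19.7% higher, 22% lower), and 23 calls kept their direction. The members' fold changes still went with GC content after this (r = -0.538, rho = -0.581, a description). The 16738 genes also reach down to 10 reads, so their share and that of the members are not like for like. Calls that ended were those of SETD7, SETDB2, SUV39H2, EED, NSD1 and KMT5B. New calls were KDM1A higher and KMT2D, EZH2 and JMJD1C lower. JMJD1C moved furthest among the new calls, from -0.03 to -0.27, since the trend fitted at its GC content and length was positive. KDM7A went from 0.62 to 0.38, KDM5B from 0.51 to 0.32, SETD2 from 0.44 to 0.25 and SUZ12 from 0.36 to 0.16. SETD1B was at -0.35 and then -0.33. With the trend removed from log2(FPKM + 1), 4 writers and 4 erasers were higher and 4 writers and 1 eraser lower, 31.7% of 41 beside 48.7% of 11588 genes (21.7% higher, 27% lower). Of the H3K36 writers SETD2 alone passed there, and KDM5B and KDM7A did not pass.

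Across the FPKM and read-based fits, both with and without the trend, 9 members kept their call: KMT2E, SUZ12, SETD2, KDM1B, KDM3A and KDM5A higher, and KMT2B, SETD1B and EHMT2 lower. With read-total scaling as well, SETD1B was the only lower one. The cause of the trend was not tested.

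**Figure D4:**
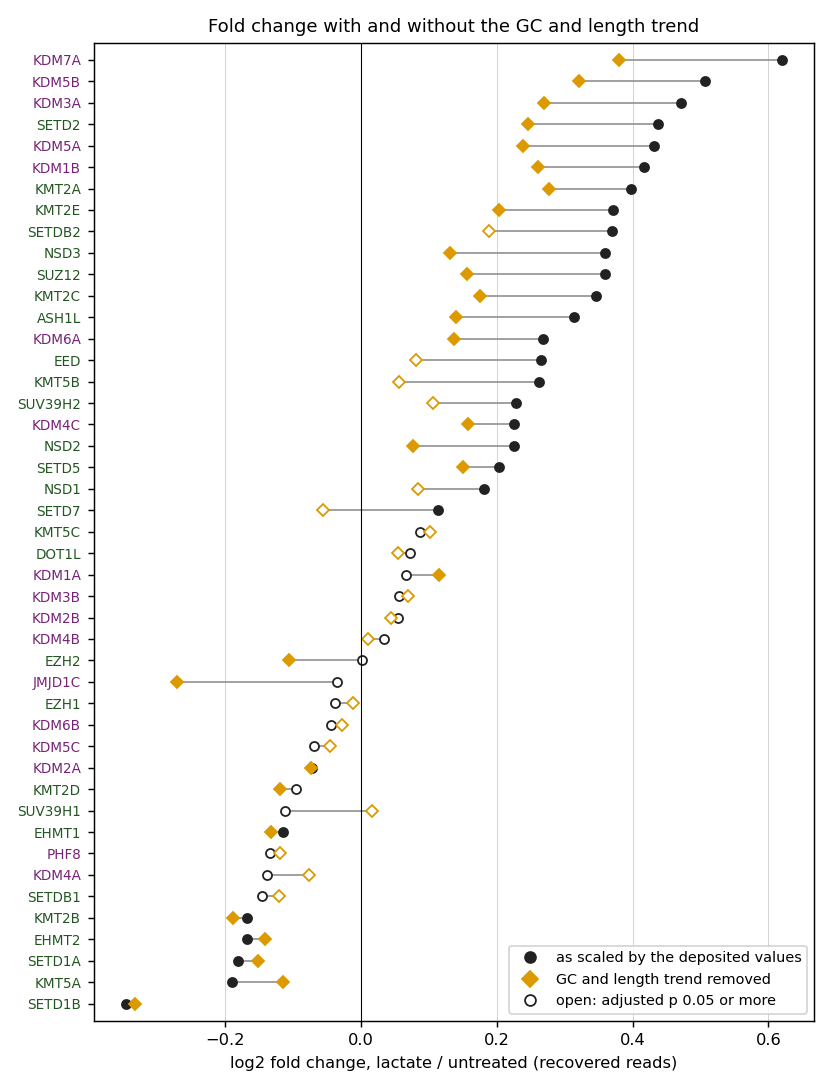
Read-based log2 fold change of each of the 45 members (black circles) and the value after removal of the trend with GC content and length (orange diamonds), with open symbols where the adjusted p was 0.05 or more. Most positive values shrink, as from 0.62 to 0.38 for KDM7A, while SETD1B stays near -0.33.

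Partner genes of these enzymes were counted from fixed lists, chosen with earlier results of these data known. Over all genes tested, 27.7% were higher and 30.9% lower, and with the trend removed 21.7% and 27%. The counts below are to be read beside these shares, and no list was tested as a set. Of 12 subunits and partners of the COMPASS complexes, some of them found only with certain MLL or SETD1 enzymes, 3 rose and 6 fell (median log2 -0.10). PSIP1, which tethers the MLL complex to chromatin, rose from 10.1 ± 0.434 to 13.9 ± 0.522 FPKM (log2 0.43, adjusted p = 0.000116). CXXC1, the CpG-binding subunit of the SETD1 complexes, fell from 6.46 ± 0.33 to 5 ± 0.326 FPKM (log2 -0.32, adjusted p = 0.00138). PAGR1, of the KMT2C and KMT2D complexes, fell from 3.31 ± 0.171 to 2.30 ± 0.288 FPKM (log2 -0.39, adjusted p = 0.00193). PSIP1, CXXC1 and PAGR1 passed in the same direction with read-total scaling, quantile normalization and the trend removed.

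Of 8 PRC2 accessory genes, 4 rose and 1 fell (median log2 0.07), and with the trend removed 4 were higher and 2 lower. MTF2, a DNA-binding Polycomb-like subunit, rose from 4.42 ± 0.113 to 5.60 ± 0.0995 FPKM (log2 0.28, adjusted p = 0.000271), while its paralog PHF19 fell from 9.76 ± 0.337 to 7.64 ± 0.249 FPKM (log2 -0.32, adjusted p = 0.000285). JARID2, which guides PRC2 to its targets, rose from 2.96 ± 0.0827 to 3.76 ± 0.0935 FPKM (log2 0.27, adjusted p = 0.000556). Of 11 partners of H3K9 methylation and HP1 genes, 6 rose and 2 fell, and with the trend removed 3 were higher and 3 lower. UHRF1 and TRIM28 were the 2 that fell, with log2 fold changes of -0.26 and -0.27, and MPHOSPH8, of the HUSH complex, rose by 0.31. Among 6 tested partners of DOT1L, AFF4, a scaffold of the super elongation complex, and AFF1 rose, and MLLT1, MLLT6 and ELL fell; with the trend removed 1 was higher and 3 lower. AFF1 reached the filter only through its lactate libraries.

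Of 11 tested members of the CoREST complex and partners of the FAD-dependent demethylases, 5 rose and 2 fell (median log2 0.11). The paralogous deacetylases HDAC1 and HDAC2 went opposite ways: HDAC1 from 78.1 ± 1.72 to 65.0 ± 1.23 FPKM (log2 -0.26, adjusted p = 0.00011), and HDAC2 from 8.10 ± 0.0286 to 10.2 ± 0.257 FPKM (log2 0.30, adjusted p = 0.000118). Both changes kept sign and call with read-total scaling, quantile normalization and the trend removed, where HDAC2 was at 0.08 with adjusted p = 0.0496. PHF21A, 1 of the 5, reached the filter only through its lactate libraries. ZMYM2, another CoREST-associated gene, rose by 0.32. GLYR1, a nuclear partner of KDM1B, fell from 18.0 ± 0.662 to 15 ± 0.229 FPKM and was named after its values were seen. In bulk RNA, fewer cells expressing a gene and less RNA in each cell cannot be told apart for any of these values.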

How the data were processed

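Poly-A RNA-seq of 3 untreated and 3 lactate-treated CAL27 libraries was used as 1 table of FPKM per gene deposited by the authors. The submitters' processing notes name fastp, HISAT2 2.0.5, featureCounts 1.5.0-p3, StringTie 1.3.3b and hg38, without roles. Whole reads recovered from the FPKM (tolerance 0.003 reads) exist for 31366 of 31368 genes; per-gene lengths came from GENCODE 29 or were searched, and those of DOT1L and SETD1A may be off by a whole factor. Groups and columns come from the labels. The members and gene lists were chosen with earlier results of these data known. Fits used limma 3.58.1 in R 4.3.3 (trend and robust) on log2(FPKM + 1), with genes of at least 1 FPKM in 3 libraries and Benjamini-Hochberg adjustment over 11792 genes, and limma-voom on recovered reads, scaled by the authors' denominators (25163374 to 40220226). The trend was a natural spline with 4 degrees of freedom on GC content and on log exon length. GC content was that of the longest GENCODE transcript. Scripts were tested on simulated data. Values per library are named for members past the threshold with a fold of at least 1.2. They are also given for the member with the smallest p of each class and for paralog pairs. For partner lists the rule was up to 3 genes of smallest p. Outside these rules, library values are given for KMT2A, and AFF1, MLLT6, PHF21A, GLYR1, JMJD4, HIF1AN and PRMT9 are named. Deviations of same-numbered libraries correlated at 0.0668 or less, and the main fit used no block. Whether the replicate numbers pair the libraries is not known. Alternatives were other scalings, filters, pseudocounts, thresholds and fits without each library. Some results of the partner lists are not reported here.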

Additional observations from a re-analysis of the deposited data

How the results depend on the processing

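Of 23 members past the threshold, 16 passed in all 6 fits that left out 1 library. Writers higher, 12 as reported, were 2 with a filter at 5 FPKM, 0 when a fold of at least 1.2 was tested and 4 with the GC and length trend removed. Writers lower, 5 as reported, were 1 with read-total scaling, 2 at 5 FPKM, 2 at adjusted p under 0.01, 0 at a fold of 1.2 and 8 with the trend removed from reads. Erasers higher, 6 as reported, were 0 at 5 FPKM and 0 at a fold of 1.2; erasers lower, 0 as reported, were 2 with quantile normalization, median centring, voom on the same genes or the trend removed from reads, and 1 with no variance trend, a pseudocount of 0.1, protein-coding genes only, the trend removed, voom on genes of at least 10 reads, or (range 0 to 1 over fits without 1 library) without lactate replicate 2. Over all genes 429 passed at a fold of 1.2 (187 higher, 242 lower) and 1786 were higher at 5 FPKM; read-total scaling split all genes 4162 higher and 2579 lower, beside 3265 and 3649. The median log2 fold change of writers was 0.0537; it was 0.0175 with quantile normalization, 0.0322 with median centring, 0.105 with read-total scaling, 0.0906 with no filter, -0.0912 at 5 FPKM, 0.0704 with a pseudocount of 0.1, 0.0366 with the trend removed, 0.0869 with voom, 0.1475 with voom on genes of at least 10 reads, 0.0664 with the trend removed from reads, 0.1444 with a pseudocount of 0.1 and no filter, and 0.0571 to 0.0886 without 1 library. That of erasers, 0.0383, was in the same order 0.018, 0.0168, 0.0872, 0.0506, -0.0079, 0.0513, 0.0553, 0.0556, 0.0559, 0.0692, 0.059 and 0.0242 to 0.0393. Signs changed with the trend removed from FPKM and reads for SETD7 (-0.0479 and -0.0559), SUV39H1 (0.022 and 0.016) and EZH2 (-0.0934 and -0.1063), and with the trend removed from FPKM for EZH1 (0.0125) and KDM6B (0.0002). EZH2 was also -0.0228 with quantile normalization and -0.0192 with median centring, and -0.0093 to 0.0192 over the fits without 1 library; EZH1 was 0.0244 with read-total scaling and -0.0714 to 0.0238 without 1 library, JMJD1C 0.0289 and KDM6B 0.0145 with read-total scaling, KDM6B -0.0708 to 0.0077 without 1 library, and KDM4B -0.004 with median centring. The cause of these differences was not tested. A fit with the replicate number as a block gave 11 writers higher and 5 lower and 6 erasers higher and 0 lower, with SETD7 the only call lost. Deviations of same-numbered libraries correlated at -0.00377 to 0.0668, and of differently numbered ones at -0.0706 to 0.0224. With 3 libraries a group these values cannot show whether the numbers pair the libraries. Depth limits SETDB2 most, at 95 reads in its shallowest library.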

Other observations

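Other enzymes of protein methylation, beyond the 45, were counted from lists chosen with earlier results known. All counts in this section stand beside 27.7% higher and 30.9% lower over all genes tested. With the trend removed those shares were 21.7% and 27%, and no list was tested as a set. Of 9 tested genes of protein arginine methylation, 7 fell and 1 rose (median log2 -0.16), and with the GC and length trend removed 7 were lower and 0 higher. PRMT1, the main asymmetric arginine methyltransferase, fell from 105 ± 0.249 to 79.5 ± 0.595 FPKM (mean ± SD, n = 3; log2 -0.40, adjusted p = 9.81e-06). PRMT5, the main symmetric one, fell from 44.7 ± 1.5 to 33.8 ± 0.625 FPKM (log2 -0.39, adjusted p = 4.87e-05), and its obligate partner WDR77 from 28.8 ± 0.261 to 22.5 ± 0.685 FPKM (log2 -0.34, adjusted p = 6.04e-05). PRMT1, PRMT5 and WDR77 kept direction and call with read-total scaling, quantile normalization and the GC and length trend removed, at log2 -0.32, -0.29 and -0.26 in the last. Summed, the list had 231 to 234 FPKM untreated and 184 to 186 FPKM with lactate. PRMT9, the 1 that rose, had adjusted p = 0.0195, which became 0.0601 in the weakest fit that left out 1 library.

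Of 10 tested other SET-domain and related methyltransferases, among them the histidine methyltransferase SETD3, 2 rose and 5 fell, but with the trend removed 0 were higher and 1 lower. Of 9 other JmjC-domain proteins 1 rose (JARID2) and 5 fell, and with the trend removed 1 was higher and 4 lower. RIOX1, JMJD4 and JMJD8 fell with log2 fold changes of -0.28, -0.30 and -0.29, SETD6 fell by 0.25, and the asparagine hydroxylase HIF1AN went from 6.34 ± 0.218 to 5.62 ± 0.0587 FPKM (log2 -0.15, adjusted p = 0.00615).

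The enzymes that supply and clear the methyl donor moved both ways: 3 rose and 3 fell of 9 tested. AHCY, which clears S-adenosylhomocysteine, fell from 90.2 ± 0.886 to 71.4 ± 0.793 FPKM (log2 -0.33, adjusted p = 1.7e-05). MAT2A, which makes S-adenosylmethionine, fell from 63.1 ± 1.28 to 51.5 ± 0.608 FPKM (log2 -0.29, adjusted p = 5.21e-05). AHCYL1, an AHCY-like protein, rose from 25.1 ± 0.586 to 30.4 ± 0.381 FPKM (log2 0.27, adjusted p = 0.000121). Of the enzymes of 2-oxoglutarate metabolism, IDH3B fell from 71.4 ± 2.05 to 57.2 ± 2.02 FPKM (log2 -0.31, adjusted p = 0.000176), and DLST fell from 17.4 ± 0.335 to 15 ± 0.225 FPKM (log2 -0.20, adjusted p = 0.000486). Levels of the metabolites were not measured here.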
